A study of Mus musculus with 6 samples.

Results

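Hematopoietic stem cells (HSCs) of untreated Cdk6-/- mice were compared with untreated wild-type HSCs on 3 of the 6 arrays of the series, chosen by the label of untreated bone marrow HSCs. Each array carried RNA of 1 Cdk6-/- sample in Cy5 and RNA of a pool of sorted, untreated wild-type HSCs in Cy3. The same pool was used on the 3 arrays, so it counts as 1 control sample, and its spread of 0.167 log2 units (median SD over 18116 genes) is technical, beside 0.343 for the Cdk6-/- samples. The other 3 arrays carried HSCs of polyI:C-treated Cdk6-/- mice against a pool of polyI:C-treated wild-type HSCs. PolyI:C mimics viral double-stranded RNA and makes cells produce interferon. PolyI:C array 3, on slide 3, stood apart from polyI:C arrays 1 and 2. Of its spots 76.5% were above background in Cy5, against 47% and 51.8% on those arrays. Its log2 ratios correlated at 0.132 and 0.218 with theirs, which correlated at 0.56 with each other. The series calls the 3 untreated samples biological replicates. The Cdk6 allele, the age of the mice, the markers used for the sort and the number of mice in a sample or pool are not given in the sources used here. No array had its dyes swapped, so the dye bias of a probe and the spread of wild-type mice cannot be told apart from a difference between genotypes.

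CDK6 is a cyclin-dependent kinase that binds D-type cyclins. With CDK4 it phosphorylates the retinoblastoma protein family, which releases E2F transcription factors and lets a cell leave G1. Most adult HSCs rest in G0, and CDK6 is also known as a chromatin-bound regulator of transcription that acts on genes such as Egr1, a transcription factor that keeps HSCs quiescent.

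Values below are log2 ratios of Cdk6-/- over the wild-type pool after loess normalization, given for untreated arrays 1, 2 and 3 in that order, with the mean, the standard error (SE) of the fit over all 6 arrays and limma's Benjamini-Hochberg adjusted p. A gene is called higher or lower in Cdk6-/- HSCs where that p was under 0.05. Of 22616 genes tested, 2939 (13%) were called, 689 (3.05%) higher and 2250 (9.95%) lower. Ratios rose with spot brightness before normalization, and the split depended on how this was treated: with each array only centred on its median, 4884 genes were higher and 1332 lower, and the median ratio of all genes moved from -0.0475 to 0.302. Of the calls, 1515 (481 higher and 1034 lower) were made in the same direction with loess, with median centring and with the scanner's processed signals. With an array left out, 1374 (without array 1), 1634 (without array 2) and 1513 (without array 3) genes were called. Of these 1167, 1370 and 1229 were lower and 207, 264 and 284 higher. In each of these 3 fits 808 genes kept their call and direction. Each gene is given by its brightest probe, and of 687 called genes with a further probe 73.1% had the same sign on the next brightest one (60.4% of all 5698 genes with several probes). Some genes named below were above background in Cdk6-/- HSCs on only some arrays, while the pool was above it on all 3: Alox15, Cdc25c, Col6a2, Dtx1, Kif18b and Kitl on 1 array, and Adipoq, Dcn, Fanca, Il2rb, Mcpt8, Nuf2 and Ttk on 2. Smad7 was above it on 2 arrays in each channel and Utp20 on 2 in the pool.

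Cdk6 itself had 1 probe, not above background in either channel, at 0.40, -0.41 and 0.24 (mean 0.08, SE 0.24, adjusted p = 0.869). No source used here places this probe inside or outside the deletion, and it is no check of the genotype. None of its 21 nearest tested neighbours on the chromosome (1 before it and 20 after it in annotation order) was called in limma's test (3 had an unadjusted p under 0.05), and their median ratio was -0.058. The arrays differed in Xist, which is transcribed from the inactive X chromosome of female cells, at 1.1, 0.42 and -3.98. Array 3 stands apart in this gene, and its sample title ends in 1 number where those of arrays 1 and 2 end in 2, with no meaning given. The main counts below are also given without it, and calls fell in number without array 1 or array 2 as well. The Y-linked Ddx3y was at 1.09, 0.72 and 1.40 (mean 1.07, SE 0.31, adjusted p = 0.0462), with an adjusted p of 0.199 without array 3. The other tested Y-linked genes were not called. Eif2s3y was at 0.007, -0.16 and -0.05 (adjusted p = 0.917), and Uty at 0.61, -0.67 and 1.505 (adjusted p = 0.446).

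HSC surface genes were examined beside the label. All 19 tested members of the list were above background in both channels on the 3 arrays, among them Kit, the stem cell factor receptor, Ly6a, which encodes Sca-1, and Slamf1, which encodes CD150. So were all 23 tested granulocyte genes and 17 of 19 B lineage genes, so detection does not check the label. None was higher, 2 were lower (10.5%, close to the 9.95% of all genes) and 17 were not called, with a median of 0.0673. Kit was at -0.14, 0.23 and 1.26 (adjusted p = 0.258), Ly6a at -0.04, -0.61 and -0.20 (adjusted p = 0.331), Slamf1 at 0.45, -0.39 and 0.59 (adjusted p = 0.637) and Procr, the endothelial protein C receptor, at 0.77, 0.66 and 0.38 (adjusted p = 0.0993). The 2 lower members were Cd48, a receptor of more mature progenitors, at -0.72, -0.24 and -1.61 (mean -0.86, SE 0.24, adjusted p = 0.0433), and Tek, which encodes the angiopoietin receptor TIE2, at -0.41, -1.29 and -0.54 (mean -0.75, SE 0.22, adjusted p = 0.0487). Neither was called without array 3, with adjusted p of 0.23 and 0.104.

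**Figure D1:**
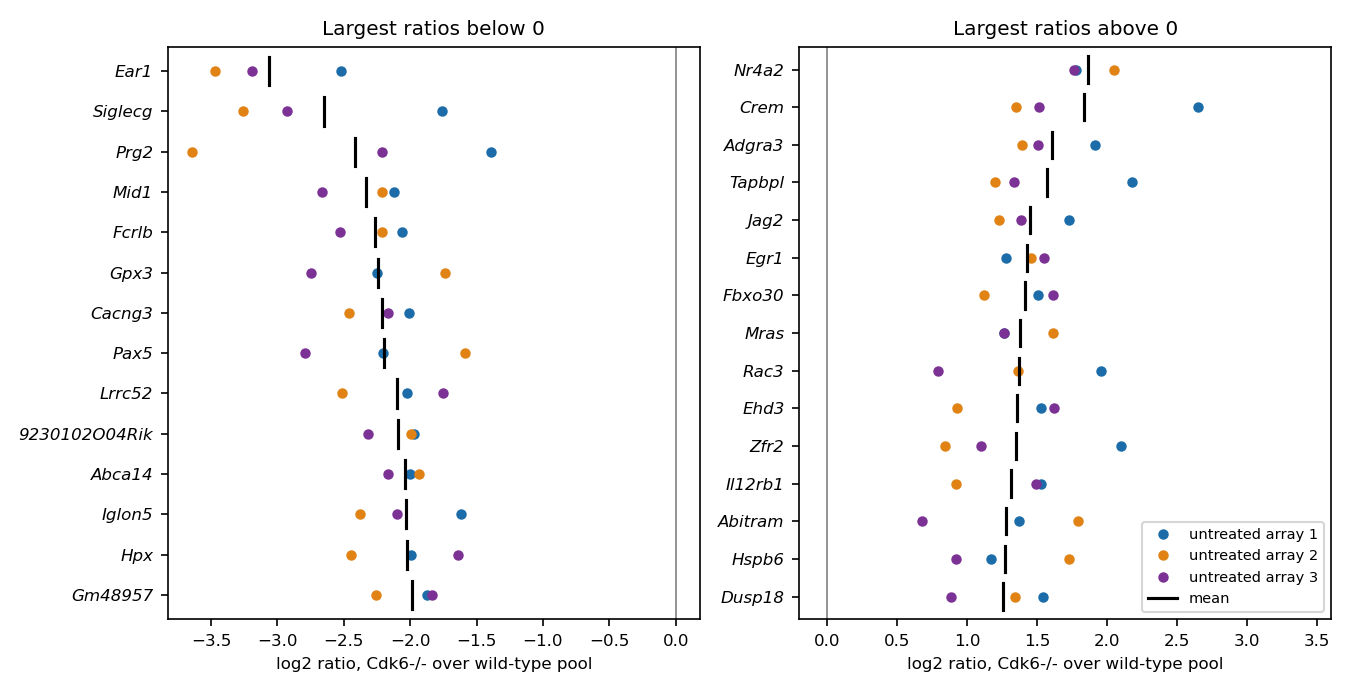
Log2 ratio of Cdk6-/- over the wild-type pool (x axis) on each untreated array (coloured points) with the mean (bar), for 14 of the 15 largest ratios below 0 and the 15 largest above 0 among called genes with a symbol, the same sign on the 3 arrays and signal above background in both channels, with Ear1 standing for its near-identical family. Ear1 had the lowest mean at -3.06 and Nr4a2 the highest at 1.86.

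Among genes measured in both channels the 2 largest ratios above 0 belonged to transcription factors of the early response, Nr4a2 and Crem, and the early response gene Egr1 was also among the 15 largest. Nr4a2, an orphan nuclear receptor, was at 1.78, 2.05 and 1.76 (mean 1.86, SE 0.23, adjusted p = 0.00158, 3.64-fold). Crem, a cAMP-responsive transcription factor, was at 2.65, 1.35 and 1.52 (mean 1.84, SE 0.31, adjusted p = 0.00577, 3.58-fold). Egr1 was at 1.28, 1.46 and 1.55 (mean 1.43, SE 0.18, adjusted p = 0.00151, 2.69-fold). The arrays lay close together for Nr4a2 and Egr1, while array 1 was highest for Crem. The other genes with large ratios above 0 had varied roles: Adgra3, an adhesion G protein-coupled receptor (1.60), Tapbpl, which edits peptides on MHC class I (1.57), Jag2, a Notch ligand (1.45), Fbxo30, an F-box protein (1.41), Mras and Rac3, small GTPases (1.38 and 1.37), Ehd3, an endocytic ATPase (1.36), Zfr2 (1.35), Il12rb1, a chain of the interleukin-12 receptor (1.31), Abitram (1.28), Hspb6, a small heat shock protein (1.27), and Dusp18, a phosphatase (1.26). Without array 1, Abitram, Zfr2 and Dusp18 had adjusted p of 0.0577, 0.0659 and 0.0575, and without array 2 Abitram had 0.0651. A further probe of Adgra3 had a mean of -0.415, and further probes of Mras had 0.318 and -1.07, so these genes' probes did not agree.

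The lowest ratios included Ear1, an eosinophil ribonuclease whose family members are near-identical and can share signal, at -2.52, -3.47 and -3.19 (mean -3.06, SE 0.26, adjusted p = 0.000473, 8.35-fold lower), and Siglecg, an inhibitory lectin of B cells, at -1.76, -3.26 and -2.93 (mean -2.65, SE 0.27, adjusted p = 0.000647, 6.28-fold lower). Gpx3, a secreted glutathione peroxidase, was at -2.25, -1.74 and -2.75 (mean -2.24, SE 0.21, adjusted p = 0.000518). Prg2, a major eosinophil granule protein, was at -1.39, -3.64 and -2.21 (mean -2.42, SE 0.46, adjusted p = 0.00906), with an adjusted p of 0.0502 without array 2. Pax5, a transcription factor of B cells, had a mean of -2.19. Others were Mid1 (-2.33), Fcrlb (-2.27), Cacng3 (-2.21), Lrrc52 (-2.10), 9230102O04Rik (-2.10), Abca14 (-2.04), Iglon5 (-2.03), Hpx (-2.03) and Gm48957 (-1.99). These last 9 genes also had mean ratios between -2.06 (Mid1) and -1.01 (Gm48957) on the polyI:C arrays, against a separate pool.

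For genes dim in 1 channel on all 3 arrays a fold is a lower bound, the bright channel's mean over the higher of the detection level and the dim signal. Lepr, the leptin receptor of marrow stroma, was at least 5.33-fold lower in Cdk6-/- HSCs, Plaat1 at least 4.02-fold, Kng2 at least 3.19-fold, Prss1 at least 3.16-fold and Nlrp12 at least 3.00-fold. Tpmt, a thiopurine methyltransferase, was at least 2.87-fold higher, Hoxc4 at least 2.77-fold, Plekhg6 at least 2.49-fold, Castor1 at least 2.42-fold and Slitrk1 at least 2.39-fold. Only the pool was above background for 569 genes, of which 296 were lower, and only Cdk6-/- for 214 genes, of which 48 were higher. The bright channel sets the direction of these calls, so they are no separate result. Fewer spots were above background in Cy5 (53.3 to 55.7%) than in Cy3 (58 to 58.7%) on these arrays.

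Of 69 genes of mitosis 20 were called lower in Cdk6-/- HSCs and none higher, with 57 means below 0 and 12 above, beside 9.95% of all genes called lower. Their median was -0.448, against -0.0475 for all genes. With median centring 7 were lower and 3 higher, beside 1332 and 4884 of all 22616 genes. The medians of the 2 mitotic lists were then -0.0434 and -0.111, against 0.302 for all genes. The group thus lay below all genes in both settings, while its distance from 0 depended on the scaling. Of 27 kinases, cyclins and regulators 9 were lower and 18 not called. Cdc25c, the phosphatase that activates CDK1, was at -1.82, -1.84 and -0.74 (mean -1.47, SE 0.24, adjusted p = 0.00447). Ttk, the checkpoint kinase MPS1, was at -1.24, -1.74 and -0.83 (mean -1.27, SE 0.25, adjusted p = 0.0108), with an adjusted p of 0.064 without array 2. Foxm1, a transcription factor of G2 and mitosis, was at -1.05, -0.65 and -1.13 (mean -0.94, SE 0.17, adjusted p = 0.00735), and the B-type cyclin Ccnb1 at -0.92, -0.68 and -0.74 (mean -0.78, SE 0.17, adjusted p = 0.0166). Array 3 was the highest of the 3 for Cdc25c and Ttk but the lowest for Foxm1. Of these 9 calls, 3, 3 and 4 were kept without array 1, 2 and 3.

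Of 42 spindle, kinetochore and chromosome genes 11 were lower and 31 not called. The kinesin Kif18b was at -1.47, -1.28 and -1.48 (mean -1.41, SE 0.18, adjusted p = 0.00158). The kinesin Kif2c was at -1.59, -0.81 and -1.33 (mean -1.24, SE 0.19, adjusted p = 0.00346), and Mki67, the proliferation antigen Ki-67, at -1.35, -1.47 and -0.66 (mean -1.16, SE 0.20, adjusted p = 0.00653). Tpx2, an activator of Aurora A, had a mean of -1.05, and the kinesins Kif23 and Kif22 had means of -0.90 and -0.88. Cenpe and Nuf2, which hold microtubules at kinetochores, had means of -1.01 and -0.98 with wide spread, from -1.76 to -0.18 and from -1.86 to -0.28. Of these 11 calls, 6, 7 and 5 were kept without array 1, 2 and 3. On the polyI:C arrays the median of the 69 genes was -0.269, none was called in limma's test and 10 had an unadjusted p under 0.05 (0.327% of all genes were higher and 0.65% lower there), and for none did the ratio differ between treatments at an adjusted p under 0.05 (14 at an unadjusted p, and 1.8% of all genes at the adjusted p).

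**Figure D2:**
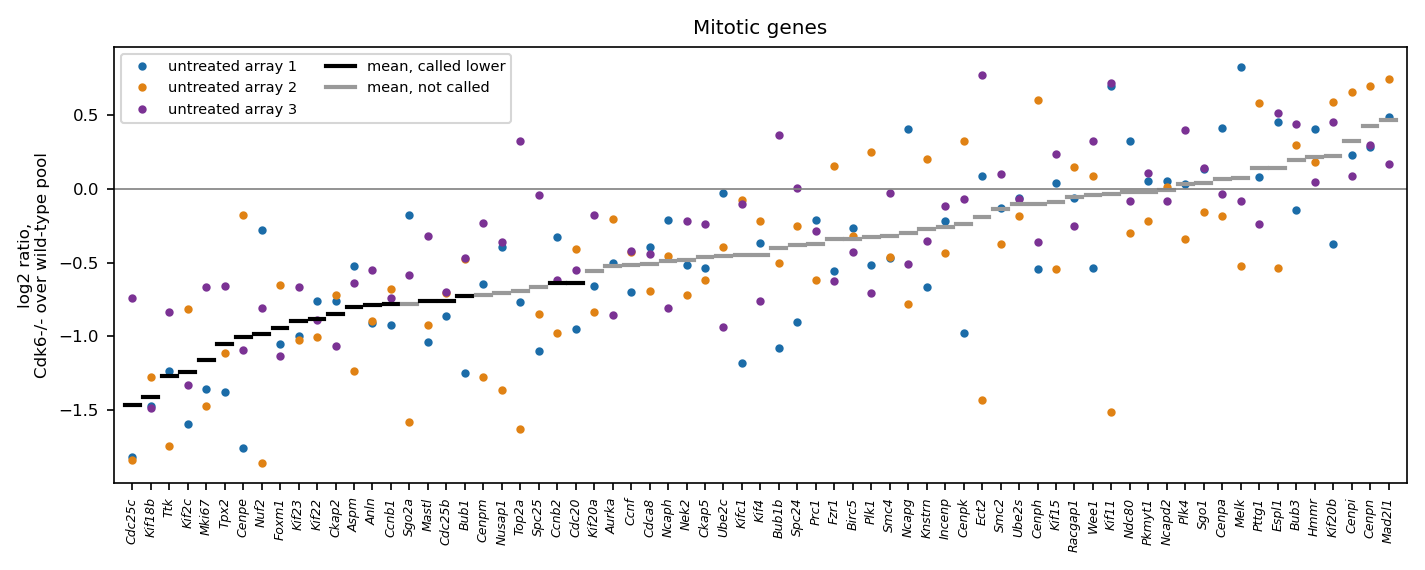
Log2 ratio of Cdk6-/- over the wild-type pool (y axis) of the 69 mitotic genes, ordered by mean, on each untreated array (points) with the mean as a bar, black where called lower. The 20 called genes have means from -1.47 (Cdc25c) to -0.64, and 57 of the 69 means lie below 0.

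Promoters of mitotic genes are known to carry the cell cycle homology region (CHR), which the DREAM and B-MYB-MuvB complexes bind. The motif TTTGAA or TTCGAA was sought on either strand in RefSeq windows of 250 bases before to 50 after the start on GRCm38.p6. A gene counted if any of its windows held a motif. This one stood in 13 of 17 lower genes with a window (76.5%) and in 29 of 43 mitotic genes not called (67.4%). Of all tested genes with a symbol and a window it stood in 1870 of 10909 (17.1%). The lower genes were thus close to the other mitotic genes in this share. The E2F motif (TTTCGCGC, TTTGGCGC or TTTCCCGC, either strand) stood in none of the 17, in 4 of the 43 (9.3%) and in 3.81% of all. The 6 lower genes with a CHR match and the lowest ratios are shown as 30 bases around the match nearest the start, gene strand, with the match in capitals.
Kif18b: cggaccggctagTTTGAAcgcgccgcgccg
Ttk: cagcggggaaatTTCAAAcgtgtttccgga
Kif2c: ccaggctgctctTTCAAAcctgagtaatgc
Mki67: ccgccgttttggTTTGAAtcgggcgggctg
Kif23: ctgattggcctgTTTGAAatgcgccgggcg
Kif22: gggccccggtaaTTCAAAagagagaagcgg
On GRCm38.p6 these are chr11:102925104-102925133 (minus strand), chr9:83834684-83834713 (plus), chr4:117178858-117178887 (minus), chr7:135716460-135716489 (minus), chr9:61946780-61946809 (minus) and chr7:127042420-127042449 (minus). The matches of Kif18b, Kif23 and Ttk begin 4, 3 and 8 bases into the gene, while those of Kif22, Mki67 and Kif2c begin before the start.

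Of 13 G1 kinases and cyclins, with which CDK6 acts, 1 was higher and 2 lower (23.1% called, beside 13% of all genes), with a median of -0.111. Ccnd1, cyclin D1, was at 0.99, 0.29 and 1.52 (mean 0.93, SE 0.24, adjusted p = 0.0285). Cdk2 was at -0.46, -0.99 and -0.67 (mean -0.70, SE 0.19, adjusted p = 0.0352), and Ccnd3, cyclin D3, at -0.58, -0.44 and -0.75 (mean -0.59, SE 0.16, adjusted p = 0.0406), but 0.05 with median centring. Without array 3 none of the 3 was called, with adjusted p of 0.165, 0.111 and 0.165. Of these calls 0 were kept without array 1 and 1 without array 2. Cdk4, the closest relative of Cdk6, was at -0.42, 0.01 and 0.36 (adjusted p = 0.963). Of 6 CDK inhibitor genes Cdkn3, a phosphatase that acts on CDKs, was lower at -1.06, -1.11 and -1.73 (mean -1.30, SE 0.19, adjusted p = 0.00326). Cdkn1a, which encodes p21, was at 1.19, 1.08 and 0.20 (adjusted p = 0.105), Cdkn1b, which encodes p27, at -0.33, -0.30 and -0.36 (adjusted p = 0.199), and Cdkn1c, which encodes p57, had a mean of 0.31 (adjusted p = 0.44). Of 19 pocket protein, E2F and DREAM genes only E2f7, a repressor E2F, was called, at -2.52, -1.56 and -1.70 (mean -1.93, SE 0.24, adjusted p = 0.00151), while its further probe had a mean of -0.166. E2f1 had a mean of 0.15 (adjusted p = 0.597) and Rb1 of -0.18 (adjusted p = 0.551).

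Among S-phase genes 1 of 24 origin licensing genes was lower, Cdc45 of the replicative helicase at -0.66, -0.83 and -0.92 (mean -0.80, adjusted p = 0.0118). Of 28 fork and nucleotide genes Tk1, thymidine kinase, was lower (mean -0.70, adjusted p = 0.0254). Linker histone genes H1f5 and H1f4 were the 2 of 27 histone genes called, both lower (means -0.95 and -0.91). Of 26 homologous recombination and Fanconi genes, Fancc and Fanca were lower (means -0.85 and -0.75), with a further probe of Fancc at 0.926. Lower calls thus made up 4.17%, 3.57%, 7.41% and 7.69% of these lists in the order given, each below the 9.95% of all genes.

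Early response genes are those that cells induce without new protein synthesis. The lists used for them also hold regulators such as Creb1 and the corepressor Nab2. Of the 51 genes tested in these lists 13 were called higher and 1, Creb1, lower, beside 3.05% of all genes called higher. With median centring 29 were higher and 1 lower, beside 4884 higher and 1332 lower of all 22616 genes. Of 13 Nr4a and cAMP response genes 6 were higher. Beside Nr4a2 and Crem these were Nr4a1, at 1.39, 0.99 and 1.1 (mean 1.16, SE 0.21, adjusted p = 0.00768), the phosphodiesterase Pde4b, at 1.42, 0.90 and 0.66 (mean 0.99, SE 0.22, adjusted p = 0.0174), the kinase Sik1, at 0.94, 0.73 and 0.94 (mean 0.87, SE 0.16, adjusted p = 0.00884), and the GTPase Gem, at 0.57, 0.61 and 1.36 (mean 0.85, SE 0.20, adjusted p = 0.0233). Creb1, the transcription factor that these genes answer to, was the lower one, at -1.51, -1.49 and -0.79 (mean -1.26, SE 0.19, adjusted p = 0.00377). The signs were the same on all 3 arrays for these 7 genes, and 6 of the 7 calls were kept without array 3. Without array 1 only 2 of the 13 genes were higher. Nr4a1, Sik1, Gem and Pde4b then had adjusted p of 0.0512, 0.051, 0.0513 and 0.11.

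In the Egr and Nab family Egr1 alone of 5 was called. Egr2 was at 1.22, -0.05 and 0.28 (adjusted p = 0.198), Egr3 at 0.38, 0.01 and 0.24 (adjusted p = 0.604) and the corepressor Nab2 at -0.79, -0.63 and 0.27 (adjusted p = 0.294). Of 11 AP-1 genes Fosb, at 0.85, 0.91 and 0.73 (adjusted p = 0.0271), and Mafk, at 0.83, 0.88 and 0.42 (adjusted p = 0.0337), were higher, while neither was called with any array left out. Fos had a mean of 0.55 (adjusted p = 0.0576) and Jun of 0.07 (adjusted p = 0.834). Of 22 feedback genes 4 were higher. They were the phosphatase Dusp5, at 1.63, 1.1 and 0.65 (mean 1.13, SE 0.21, adjusted p = 0.00899), and the Ras-MAPK inhibitors Spred1, at 0.95, 1.1 and 0.97 (mean 1.01, SE 0.17, adjusted p = 0.0054), and Spry1 (mean 0.65), with Ier3 (mean 0.95). Dusp1, a related phosphatase, had a mean of 0.14 (adjusted p = 0.654). On the polyI:C arrays 12 of the 51 genes of these lists were called higher and none lower, beside 0.327% of all genes called higher there. The ratio of 1 of the 51 differed between treatments, beside 1.8% of all genes.

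The EGR motif (GCGTGGGCG or GCGGGGGCG, either strand) stood in the windows of 3 of 9 higher genes of the early response lists (33.3%). It stood in 8 of 28 not called (28.6%) and in 6.92% of all. The cAMP response element TGACGTCA stood in none of the 9 and in 3.25% of all. The 3 EGR matches, all before the start, are shown in capitals within 30 bases.
Nr4a1: gcgtcagtggCGCCCCCGCccctctccatg
Fosb: tgacgcaagcGCGGGGGCGggtcccggagg
Mafk: cgtggccatcGCGGGGGCGgggcggtgacg
On GRCm38.p6 they are chr15:101266776-101266805 (plus strand), chr7:19310076-19310105 (minus) and chr5:139791470-139791499 (plus).

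Of 27 HSC-restricted regulators 2 were higher and 1 lower (11.1% called, close to the 13% of all genes), with a median of 0.109. Mllt3, a regulator of HSC maintenance, was at 0.56, 0.99 and 0.70 (mean 0.75, SE 0.17, adjusted p = 0.0192), and Angpt1, the ligand of TIE2, at 0.49, 0.50 and 0.78 (mean 0.59, SE 0.16, adjusted p = 0.0417). Txnip, an inhibitor of thioredoxin, was at -0.88, -0.92 and -0.52 (mean -0.78, SE 0.18, adjusted p = 0.0199), but 0.107 with median centring. Without array 3 Mllt3 and Angpt1 had adjusted p of 0.0701 and 0.176. Mecom had a mean of 0.28 (adjusted p = 0.564). Of 24 blood stem and progenitor transcription factors 5 were lower (20.8%, beside 9.95% of all genes) and none higher. Ets1 was at -1.35, -1.13 and -1.78 (mean -1.42, SE 0.21, adjusted p = 0.00275), and Spi1, which encodes the myeloid and lymphoid factor PU.1, at -1.09, -1.01 and -1.63 (mean -1.24, SE 0.18, adjusted p = 0.00298). Lyl1 (-0.82), Gata1 (-0.67) and Nfe2 (-0.62, but 0.105 with median centring) were the others, and Ets1 and Spi1 alone of the 5 kept their call without array 3. Of 16 Hox genes Hoxc4 alone was called, higher, and it was dim in the pool.

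Of 20 homing and adhesion genes 5 were lower (25%, beside 9.95% of all genes) and none higher. Among them were the leukocyte integrin chains Itgb2, at -1.30, -1.26 and -1.97 (mean -1.51, SE 0.21, adjusted p = 0.0024), and Itgal, at -0.89, -0.76 and -1.60 (mean -1.09, SE 0.20, adjusted p = 0.0086), the chemokine Cxcl12 (mean -1.28) and its receptor Cxcr4, at -1.04, -1.14 and -1.12 (mean -1.10, SE 0.17, adjusted p = 0.00391). Without array 3, 2 of the 5 calls were kept. Cxcr4 varied little between arrays and was called without each of them, but had a ratio of -0.121 with median centring. In the Notch pathway, which guides lymphoid fate, Jag2 was higher and Notch1, its regulator Dtx1 and the inhibitor Numb were lower (means -1.06, -1.11 and -0.68) of 19 tested. Of 21 TGF-beta, BMP and Id genes 3 were higher, the pathway inhibitors Skil (1.15) and Smad7 (0.93) and the coreceptor Tgfbr3 (0.95), and 3 lower, the ligands Bmp2 (dim in Cdk6-/- HSCs, at least 1.47-fold) and Bmp4 (-1.09) and the inhibitor Id2 (-0.79). Of the Notch list 5.26% were higher and 15.8% lower, and of the TGF-beta list 14.3% each, beside 3.05% and 9.95% of all genes. Without array 3, 1 gene of the TGF-beta list was higher and 1 lower, and in the Notch list 2 were higher and none lower.

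Among markers of other blood and marrow cells, eosinophil, B lineage and stromal genes had the lowest medians. Of 12 eosinophil genes 10 were lower (83.3%, beside 9.95% of all genes), with a median of -2.32, and 7, 6 and 9 were lower without array 1, 2 and 3. Alox15, a lipoxygenase, was at -3.07, -2.23 and -3.19 (mean -2.83, SE 0.25, adjusted p = 0.000473), the peroxidase Epx at -1.18, -2.14 and -0.94 (mean -1.42, SE 0.33, adjusted p = 0.0201), and Il5ra, the interleukin-5 receptor, had a mean of -0.68. The ribonucleases Ear1, Ear2, Ear6, Ear10 and Rnase2a share sequence and are not independent. Summed over the list, signal ran from 14479 to 21906 in Cdk6-/- samples and from 87706 to 101729 in the 3 hybridisations of the pool, whose range is technical.

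Of 19 B lineage genes 11 were lower (57.9%, beside 9.95% of all genes), and 7 without array 3. The medians on the 3 arrays were -1.06, -0.676 and -1.93. Pax5 was at -2.20, -1.59 and -2.79 (mean -2.19, SE 0.25, adjusted p = 0.00114), and Ebf1, which acts before it, at -2.33, -0.12 and -1.91 (mean -1.45, SE 0.38, adjusted p = 0.0313). Array 2 was the least low for both genes. The antigen receptor chains Cd79a and Cd79b had means of -1.59 and -1.49, the adaptor Blnk -1.75 and Ms4a1, which encodes CD20, -1.63. The summed signal was 23598 to 34761 in Cdk6-/- samples and 52890 to 55319 in the pool.

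Of 30 stromal and osteolineage genes 18 were lower (60%, beside 9.95% of all genes), and 10 without array 3, with a median of -1.05. Dcn, the matrix proteoglycan decorin, was at -2.89, -2.37 and -2.05 (mean -2.44, SE 0.20, adjusted p = 0.000383), and Col6a2 at -1.81, -2.84 and -2.46 (mean -2.37, SE 0.22, adjusted p = 0.000548). Fn1, Igfbp5, Ibsp and Adipoq had means of -1.61, -1.46, -1.50 and -1.54. Kitl, the niche ligand of Kit, had a mean of -0.98. The summed signal was 15972 to 27166 against 41918 to 42971 in the pool.

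Of 23 granulocyte genes 10 were lower (43.5%, beside 9.95% of all genes), and 5, 13 and 3 were lower without array 1, 2 and 3. With median centring 3 were lower and 3 others higher, beside 1332 and 4884 of all 22616 genes. The medians on the 3 arrays were -0.846, -0.401 and -1.59. Cxcr2, the neutrophil chemokine receptor, was at -1.55, -1.12 and -2.17 (mean -1.61, SE 0.22, adjusted p = 0.00229), Stfa2, a stefin, at -1.47, -1.0 and -2.30 (mean -1.59, SE 0.25, adjusted p = 0.004), and S100a8 at -0.93, -0.56 and -1.92 (mean -1.14, SE 0.25, adjusted p = 0.0158). Array 3 was the lowest for each of them. The summed signal was 329632 to 450445 against 542403 to 689916. On the polyI:C arrays the list's median was 0.873.

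Of 24 monocyte and macrophage genes 4 were lower (16.7%), with Fcgr3 (-1.53), Marco (-1.40) and Lyz2 (-1.24) among them. Here and below the shares stand beside 9.95% of all genes called lower and 3.05% called higher. Without array 3 only 1 was lower, and the list's medians on the 3 arrays were -0.415, 0.0223 and -1.01. Of 8 mast cell and basophil genes 3 were lower (37.5%), Mcpt8 (-1.90), Fcer1a and Cpa3. The last 2 were dim in Cdk6-/- HSCs on all arrays and at least 1.68-fold and 1.45-fold lower. Of 27 erythroid genes 5 were lower (18.5%), and Hemgn was higher (0.83). Among the lower ones was Klf1, a master regulator of red cells, at -1.05, -0.99 and -1.44 (mean -1.16, SE 0.23, adjusted p = 0.00968). Only 2, 1 and 1 erythroid genes were lower without array 1, 2 and 3, and none higher. With median centring 1 was lower and 6 higher, beside 1332 and 4884 of all 22616 genes. The erythroid list's summed signal was 419143 to 443709 in Cdk6-/- samples and 300785 to 368848 in the pool. Of 21 megakaryocyte genes Itgb3 (-1.37) and Ppbp (-1.30) were among 4 lower (19%), and Vwf (0.75) was higher. Only 1, 2 and 1 megakaryocyte genes were lower without array 1, 2 and 3, and 0, 1 and 0 higher. Of 19 T and NK genes 3 were lower (15.8%), led by Il2rb (-1.84), and 1 without array 3. Of 18 endothelial genes 1 was higher and 1 lower (5.56% each), with a median of 0.0847. In bulk RNA, fewer cells of a type and less RNA per cell cannot be told apart. The part of such cells in the ratios of the stem cell, homing, mitotic and metabolic genes was not tested.

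**Figure D3:**
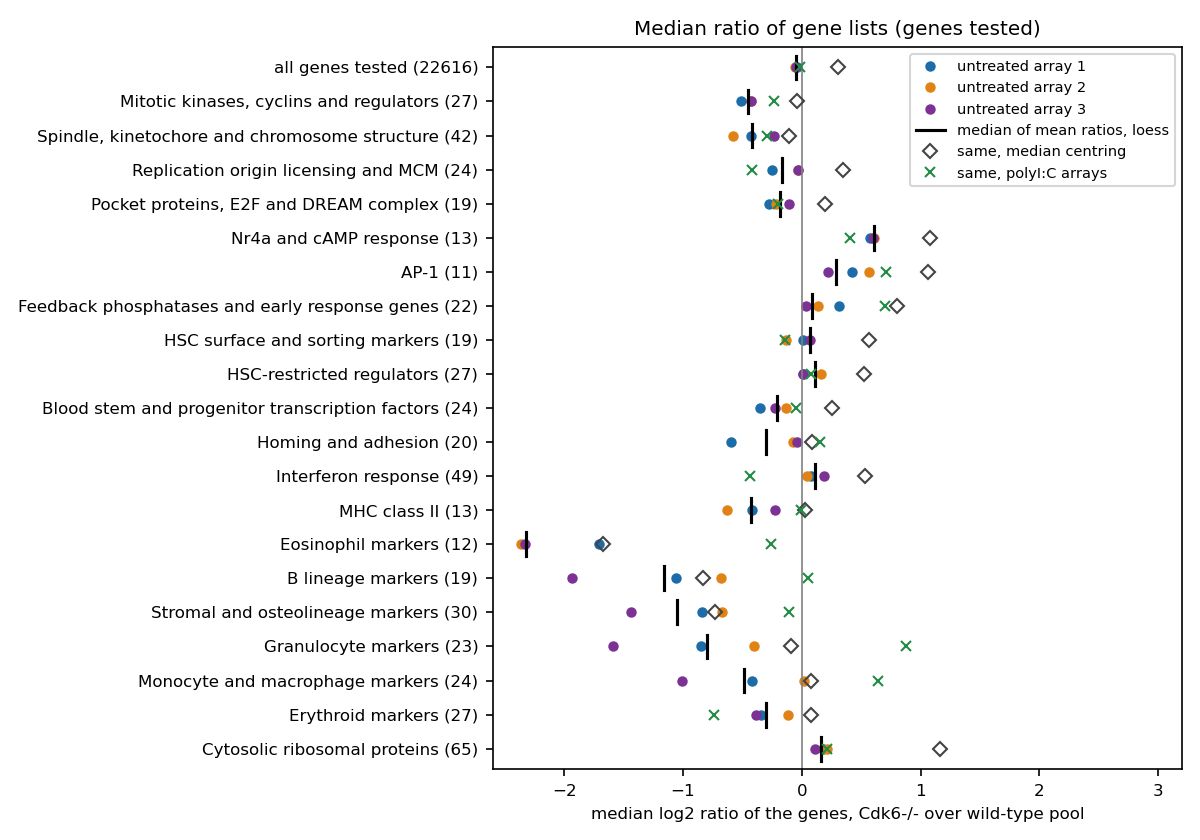
Median log2 ratio of Cdk6-/- over the wild-type pool (x axis) for gene lists, with the number of genes tested in brackets: on each untreated array (points), of the mean ratios with loess (bars) and with median centring (diamonds), and on the polyI:C arrays (crosses). Eosinophil, B lineage and stromal markers are at -2.32, -1.16 and -1.05 with loess and stay below 0 with median centring, while ribosomal proteins move from 0.16 to 1.16.

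Interferon response genes were of interest because polyI:C acts through interferon. On the untreated arrays 6 of 49 were higher (12.2%, beside 3.05% of all genes) and none lower, with a median of 0.11. Herc6, an interferon-induced ubiquitin ligase, was at 1.67, 0.80 and 1.0 (mean 1.15, SE 0.20, adjusted p = 0.0063) and was called without each of the arrays. The others were the GTPases Irgm1 (0.83) and Iigp1 (0.74), the RNA sensors Ifih1 (0.68) and Eif2ak2 (0.67), and Oasl1 (0.66). Of these 6 calls, 1, 3 and 1 were kept without array 1, 2 and 3. On the polyI:C arrays the median of the list was -0.432. In antigen presentation Tapbpl was the 1 of 20 MHC class I genes called. Of 13 MHC class II genes 4 were lower (30.8%, beside 9.95% of all genes). The invariant chain Cd74 was at -1.08, -1.23 and -1.34 (mean -1.22, SE 0.17, adjusted p = 0.00228), and H2-DMb2, H2-Eb1 and H2-Ob had means of -1.40, -0.86 and -0.85. Without array 3, and with median centring, 1 of the 13 was lower, beside 1229 and 1332 of all 22616 genes. B cells carry class II genes as well, and of their markers 11 of 19 were lower. Their part in these ratios was not tested.

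Of antioxidant genes 19.2% were called and of glycolysis genes 14.8%, beside 13% of all genes, while 2.33% of respiratory chain and 4% of citrate cycle genes were. Of 26 genes of the antioxidant list Srxn1, sulfiredoxin, was higher at 1.17, 0.85 and 0.99 (mean 1.0, SE 0.17, adjusted p = 0.0054). Gpx3, Prdx5 (-0.91, but 0.0216 with median centring), Gsr (-0.79) and Txnip were lower, and the last of these is an inhibitor of thioredoxin. Of 27 glycolysis genes 4 were lower: Pfkfb4 (-1.20), the myeloid hexokinase Hk3 (-0.85), the lactate transporter Slc16a3 (-0.80) and Eno1 (-0.61, but 0.238 with median centring). Of 75 mitochondrial ribosomal proteins 5 were lower (6.67%, under the 9.95% of all genes), among them Mrpl28 (-1.28) and Mrps11 (-1.11). Of 40 Myc and ribosome biogenesis genes Utp20 (1.0), Polr1b (0.81) and Nop58 (0.80) were higher and Mxd3 (-0.78) and Nop56 (-0.75) lower (12.5% called, close to the 13% of all genes). In the BCL2 family of 14 genes 7.14% were higher and 21.4% lower, beside 3.05% and 9.95% of all genes. The survival factor Bcl2 was higher (0.69), and the death factors Bad (-0.69), Bid (-0.68) and Bok (dim in Cdk6-/- HSCs, at least 1.47-fold) were lower. None of these 4 calls was kept without array 1, without array 2 or with the untreated arrays alone. Without array 3 the antioxidant, glycolysis and BCL2 lists held 2, 1 and 1 lower genes, and the BCL2 and biogenesis lists 0 and 1 higher. Of 65 cytosolic ribosomal proteins 1 was higher with loess and 62 with median centring, beside 689 and 4884 of all 22616 genes.

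**Figure D4:**
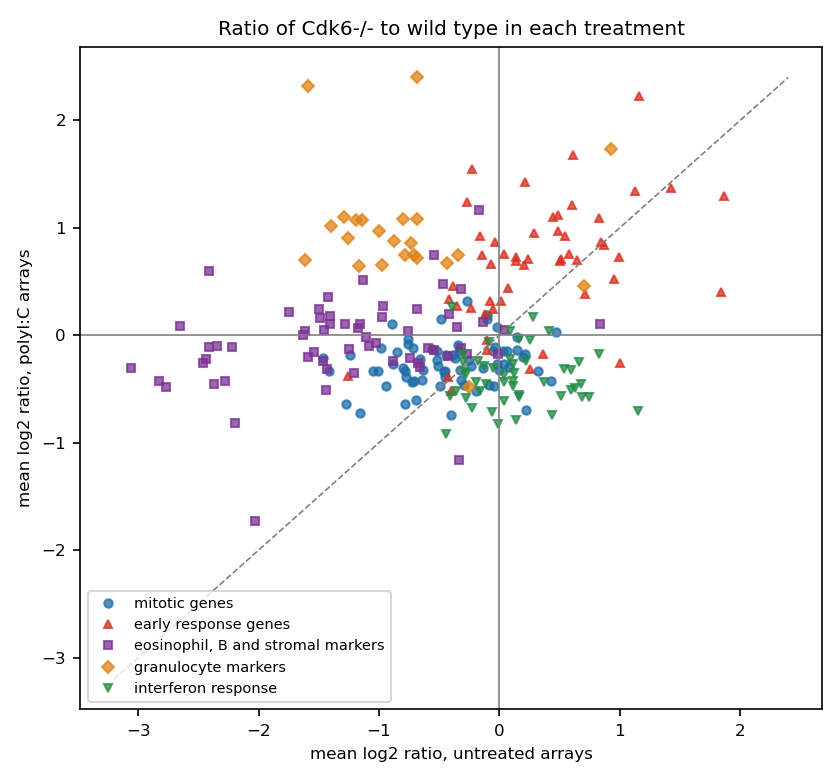
Mean log2 ratio of Cdk6-/- over wild type on the untreated arrays (x axis) and on the polyI:C arrays (y axis, against another pool), 1 point per gene, with the line of equal ratios dashed. Granulocyte markers lie mostly below 0 untreated and above 0 with polyI:C (medians -0.8 and 0.873), and interferon response genes have medians of 0.11 and -0.432.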

How the data were processed

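Per the labels' protocols, a TransPlex WTA2 kit amplified the RNA, which was labelled with platinum-bound dyes and hybridised to Agilent arrays, with Cdk6-/- RNA in Cy5 and the pool in Cy3. The authors deposited, per the file headers, median spot and background intensity and processed signals (also intensity, background-subtracted and dye-normalized) from Agilent Feature Extraction 11.5.1.1. The deposited log10 ratio and the deposited flags (other) were used only for checks and filters. The deposited log2 value table was equal to the log2 ratio of processed signals within 2.5e-06. The authors' own tests are not stated in these sources.

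Median intensities were corrected with normexp (offset 50) and loess in limma 3.58.1 (R 4.3.3). The plan named mean signals, which were not used here. Of 55681 probes, 31780 passed the filter, which asked for a detected spot (well above background) in at least one channel throughout a group's arrays. Controls and flagged spots (0.657%) were left out, and the brightest probe stood for a gene. Symbols came from RefSeq on GRCm38.p6 (26391 of 26695 accessions matched). lmFit and eBayes fitted all 6 arrays with 1 mean per group (4 residual degrees of freedom), with Benjamini-Hochberg adjustment over 22616 genes. An exact sign-flip test of 3 arrays cannot go below 0.25. Of 59305 spots an array, 53.3 to 55.7% were above background in Cy5 on the untreated arrays and 58 to 58.7% in Cy3, which with the number of arrays limits precision. Levels for bounds and sums came from loess followed by quantile normalization of average intensity.

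Members and the 55 gene lists were chosen with earlier results of these data known. Named genes were Cdk6 and Xist, the 15 largest ratios on each side (1 of a near-identical family, Ear1 for the Ear genes and Rnase2a), the 5 largest bounds on each side and up to 8 members per list (2 such genes are not reported here), called ones by size first, with uncalled ones chosen for their role. Alternatives covered centring, background, filters, probes, slide and each array. Arrays 1 and 3 shared slide 1 and array 2 was on slide 2.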

Additional observations from a re-analysis of the deposited data

Results flagged for a closer look

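The ratio of Cdk6-/- to wild type differed between the untreated and the polyI:C arrays at an adjusted p under 0.05 (limma, contrast of the 2 group means, 3 arrays each) for 43 of the genes considered here and for 406 of 22616 genes tested (1.8%). The values below are the untreated minus the polyI:C log2 ratio. Each treatment had its own wild-type pool, 1 sample each, so a difference between the pools cannot be told apart from one between the Cdk6-/- samples. PolyI:C array 3 also stood apart from polyI:C arrays 1 and 2, with correlations of 0.132 and 0.218, against 0.56 between those. Named genes were partly chosen for their untreated ratios, so their number here is a description.

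For 30 genes the untreated ratio lay below the polyI:C ratio. Granulocyte genes had differences of Stfa2 (-3.91), Fcnb (-2.41), Chil3 (-2.39), Cxcr2 (-2.31) and S100a8 (-2.21). Stfa2 had a mean ratio of -1.59 untreated and 2.32 with polyI:C (SE of the difference 0.351, adjusted p = 0.00401). Genes of macrophages had differences of Marco (-3.14), Lyz2 (-2.18) and Fcgr3 (-2.14), those of eosinophils and B cells Ear1 (-2.75), Alox15 (-2.4), Siglecg (-2.74) and Cd79b (-1.65), and those of stroma Dcn (-2.22) and Col6a2 (-1.92). The other differences were Gpx3 (-2.87), Ppbp (-2.06), Itgb2 (-1.99), H2-DMb2 (-1.95), Ptgs2 (-1.93), Pfkfb4 (-1.82), Itgb3 (-1.62), Spi1 (-1.59), Id2 (-1.56), Ets1 (-1.53), Cxcr4 (-1.32) and Lyl1 (-1.22). For Ear1, Dcn and Col6a2 the polyI:C ratio lay between -0.451 (Col6a2) and -0.217 (Dcn), while Spi1 and Cxcr4 were below 0 untreated and above 0 with polyI:C (-1.24 and 0.344, -1.10 and 0.221).

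For 13 genes the untreated ratio lay above the polyI:C ratio. Among them were Eif2ak2 (1.13), Spred1 (1.26), Ifih1 (1.26), Tgfbr3 (1.27), Iigp1 (1.32), Fbxo30 (1.34), Ehd3 (1.55), Tapbpl (1.74), Herc6 (1.86) and Adgra3 (1.99). Herc6 had a ratio of 1.15 untreated and -0.702 with polyI:C (SE of the difference 0.285, adjusted p = 0.0171), and Ifih1, Iigp1 and Eif2ak2 likewise changed sign. Egr1 (1.43 and 1.37) is not among the genes whose ratio differed (adjusted p = 0.947).

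Among these 43 genes 7 were dim in 1 channel on all 3 untreated arrays, so their untreated ratio is not measured on both sides, and the fitted differences give neither a size nor an order. They were Lepr (-2.3), Prss1 (-1.78), Nlrp12 (-1.64) and Kng2 (-1.57), dim in Cdk6-/- HSCs, and Castor1 (1.29), Tpmt (1.38) and Hoxc4 (1.6), dim in the pool. Alox15, Col6a2 and Ptgs2 were above background in Cdk6-/- HSCs on 1 untreated array and Dcn on 2.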

How the results depend on the processing

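The number of called genes, 2939 (689 higher and 2250 lower), became 6216 (4884 and 1332) with median centring and 1763 (362 and 1401) with the untreated arrays alone, and 1400 were lower with processed signals. With the slide as a random block 2442 were called. Leaving out 1 array at a time gave 1374 to 3422 calls, 207 to 1003 higher and 1167 to 2419 lower. The highest of each of these counts came without polyI:C array 3. Leaving out both arrays low in Xist, untreated array 3 and polyI:C array 3, was added after seeing the data and gave 1638 calls. Counts of lower genes were, with median centring, 3 of the mitotic kinases and cyclins, 4 of the spindle genes and 3 of the granulocyte genes. Of the mitotic kinases and cyclins 5 were lower both with processed signals and with the untreated arrays alone. With both channels required above background 11 stromal genes were lower, with 18175 genes tested. With 1 array or both of those arrays left out, counts ran from 3 to 10 for mitotic kinases and cyclins, 6 to 11 for spindle genes, 7 to 12 for B lineage genes, 3 to 13 for granulocyte genes, 6 to 11 for eosinophil genes and 9 to 19 for stromal genes (all lower), and from 2 to 6 for the Nr4a list (higher).

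Signs turned with median centring for Cdk6 (-0.255), Ccnd3 (0.0499), Cdk4 (0.564), Cdkn1b (0.351), Rb1 (0.176), Ly6a (0.213), Txnip (0.107), Nfe2 (0.105), Prdx5 (0.0216) and Eno1 (0.238), a setting in which the median of all genes was 0.302. Cdk4 was 0.0669 with processed signals, and with the median over probes Cdk4 was 0.0119, Fancc 0.0366 and Nab2 0.0929. With arrays left out Cdk6 ran from -0.0865 to 0.317, Xist from -1.78 to 0.761, Cdk4 from -0.209 to 0.183, Rb1 from -0.342 to 0.0106 and Cd34 from -0.07 to 0.203. Causes were not tested. No paired analysis was possible because the labels give the arrays no shared replicate numbers. Signal near background and 3 arrays limit what could be called.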
